A study of Caenorhabditis elegans with 12 samples.

Results

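The genes described here are 43 Caenorhabditis elegans homeobox genes outside the Hox cluster, many of them known regulators of neuron and tissue identity. They were chosen by name: a gene was a member if its WormBase symbol was on a list of 43 symbols, and all 43 were found among the 25122 genes of the table. The rule itself uses no measured value, but the list was drawn up with earlier results of these data known. By homeodomain class they comprise 3 POU, 7 LIM, 8 paired-like, 3 Pax, 2 sine oculis-type, 5 TALE, 3 Onecut and 11 NK and Antennapedia-like genes, and the zinc-finger homeobox gene zag-1. RNA was sequenced from eggs of 3 genotypes, with 4 libraries per genotype and 1 library of each genotype in each of 4 batches. All 3 genotypes carried daf-2(e1370), a reduced-function allele of the insulin/IGF-1 receptor gene, so the daf-2 libraries were mutant controls and no wild-type eggs were among them. The second genotype added bcl-11(bon125), a hypomorphic allele of the BCL11-family zinc-finger gene, and the third carried the same bcl-11 allele and daf-16(mu86), an allele of the FOXO transcription factor gene. Mothers were grown at 20°C on OP50-1 bacteria, their eggs were released by bleaching and held at 27°C for 2 h, and the developmental age of the eggs was not given. The comparisons addressed how the bcl-11 allele changed embryonic transcription in warmed daf-2 eggs, and whether loss of daf-16 changed it back.

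A homeobox gene encodes a transcription factor that binds DNA through a homeodomain. In the C. elegans nervous system, combinations of these factors act as terminal selectors, which switch on the receptors, channels and transmitter enzymes of a neuron class and often maintain their own expression. Other members pattern the epidermis, pharynx and head, or act as cofactors that let other homeodomain proteins bind DNA. In whole eggs, fewer cells of a type and less RNA per cell cannot be told apart.

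The values were rlog values, which are normalised counts on a log2 scale with the differences of poorly measured genes shrunk towards 0. A log2 fold change is the difference between 2 genotype means of 4 libraries. A gene was called higher or lower when the limma test gave an adjusted p below 0.05 over all 25122 genes and the log2 fold change passed 0.585 in size, a fold change of 1.5. Depth per library is unknown, since rlog values keep no read numbers. The median over all genes was between 6.36 and 6.50 in the daf-2 libraries and between 5.77 and 6.01 in the other 8 libraries. As a check of the labels, daf-16 was at 12.12 ± 0.15 (SD, n = 4) in daf-2 eggs, at 9.72 ± 0.14 in the triple mutant (daf-16;daf-2;bcl-11) and at 9.52 ± 0.06 in the 4 libraries whose label reads daf-2;bcl-11. The low daf-16 level goes against that label, so these are called the labelled double mutant below, and each direction drawn from them holds only if the label does. The bcl-11 gene was at 10.15 ± 0.37, 9.28 ± 0.18 and 9.10 ± 0.72 in daf-2 and in these 2 groups, which checks no label, since the bon125 frameshift need not lower the RNA.

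Against daf-2, the labelled double mutant had 10 of the 43 homeobox genes lower and 2 higher, and 31 did not pass the test. The lower genes were the POU genes ceh-18 and unc-86, the LIM genes lim-4, lim-6, lin-11 and mec-3, the paired-like genes unc-4 and unc-42, the Onecut gene ceh-48 and the NK gene ceh-24. The higher genes were ceh-40, a Pbx-type cofactor, and ceh-43, the Distal-less homologue. Over all genes 15% were called lower and 7.00% higher, and among the 16924 genes with a mean of at least log2(10), a filter that 42 of the 43 members passed, the shares were 21.7% and 10.4%. Of the members, 23.3% were lower, near the share of genes of such levels, and 4.65% were higher, below that share.

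The triple mutant libraries had 11 members lower and 6 higher than daf-2, and 26 did not pass. The 11 were the same 10 genes and ceh-2, an Emx-type gene of the pharynx. The 6 were ceh-40, ceh-43, the paired-like gene ceh-36, pax-3, the Onecut gene ceh-39 and ceh-16, the engrailed homologue. Over all genes 16.2% were called lower and 6.38% higher, or 23.5% and 9.46% above log2(10), against 25.6% and 14% of the members. Both mutant groups were compared with the same 4 daf-2 libraries, so the shared genes are not separate evidence. Libraries did not overlap between genotypes for 21 of the 43 members in the first comparison, where 35.3% of all genes did not. In the second it was 20 of the 43, beside 29.8% of all genes. These shares of all genes include genes with a mean below log2(10).

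These counts depended on how libraries were scaled. Setting every library to the same median over all genes moved the median log2 fold change of all genes from -0.02 to 0.41 for the labelled double mutant and from -0.01 to 0.52 for the triple mutant. Called against 0, with that shift left in every fold change, 3 members were lower and 14 higher in the first comparison. In the second, 3 were lower and 24 higher. Over all genes, 7.40% were then called lower and 26.7% higher in the first comparison, and 8.08% and 37.6% in the second. The members lower under both scalings were mec-3, ceh-48 and ceh-24 in the first comparison and mec-3, unc-4 and ceh-24 in the second. None of the 17 members called in at least 1 comparison changed direction in a comparison where it was called, under any alternative run. Calls also changed with a stage score (maternal and early zygotic minus late embryonic transcripts) as a covariate. Only mec-3 and unc-4 then kept a lower call in the first comparison. In the second, ceh-18, mec-3, unc-4, ceh-48, ceh-2 and ceh-24 kept one. The score did not overlap between the groups of the first comparison, so that fit cannot separate stage from genotype there. Quantile normalization cost ceh-18, lim-6, unc-4 and ceh-24 their call in the first comparison, and ceh-18, lim-4, lim-6 and ceh-2 in the second. ceh-40 and ceh-43 lost theirs in both, and ceh-39 in the second.

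**Figure D1:**
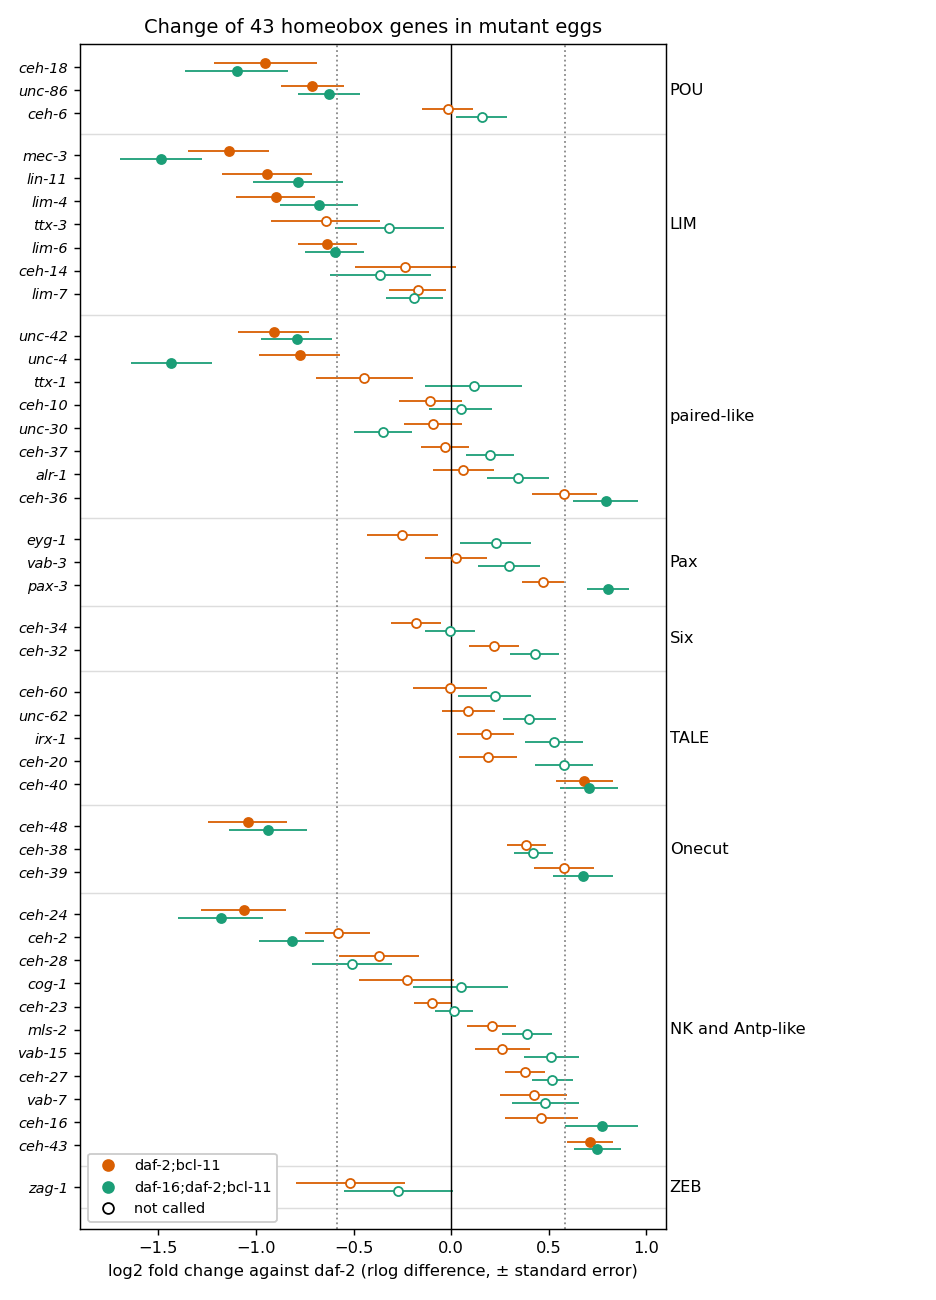
Log2 fold change against daf-2 of the 43 homeobox genes, as rlog differences with their standard errors, by homeodomain class and ordered within each class. Filled points passed both thresholds (dotted lines at a fold change of 1.5), open points did not. All 7 LIM genes lay left of 0, which 2 and 3 of them did not after centring of the libraries, and all 5 TALE genes lay right of 0 in the triple mutant comparison, with 10 filled points on the left for the labelled double mutant and 11 for the triple mutant.

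Members are compared with daf-2 library by library below if they were called without overlap in at least 1 comparison. The lack of overlap in that comparison thus follows from the choice. The POU genes unc-86 and ceh-18 fell in both mutant groups. unc-86, which gives touch receptor and other neurons their identity and acts together with mec-3, lies on chromosome III at 8212740 to 8216336 (WBcel235). In batches 1 to 4 it was at 11.59, 11.66, 11.42 and 11.38 in daf-2, at 10.53, 10.80, 11.00 and 10.89 in the labelled double mutant, and at 10.68, 11.17, 11.13 and 10.59 in the triple mutant. Every daf-2 library was above all 8 others. The log2 fold changes were -0.71 (SE 0.16, limma adjusted p = 0.0041) and -0.62 (limma adjusted p = 0.00768). The second lay near the threshold of 0.585 and was no longer called without daf-2 replicate 2 (-0.58), triple mutant replicate 1 (-0.56) or triple mutant replicate 4 (-0.52).

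ceh-18, a POU gene of the gonadal sheath cells that signal to oocytes, lies on chromosome X at 3843367 to 3857797. It was at 8.13, 8.58, 8.82 and 8.20 in daf-2, at 7.55, 7.36, 7.28 and 7.73 in the labelled double mutant, and at 7.59, 6.49, 7.82 and 7.43 in the triple mutant. Again the daf-2 libraries were the highest, and replicate 2 of the triple mutant was the lowest of the 12. Its log2 fold changes were -0.95 (SE 0.26, limma adjusted p = 0.0135) and -1.10 (limma adjusted p = 0.0050). The remaining POU gene, ceh-6 of the excretory cell, changed by -0.02 and 0.16 and passed no threshold.

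Of the 7 LIM homeobox genes, 4 were called lower in each comparison. All 7 had a log2 fold change below 0 in both, with class medians of -0.64 and -0.60. Centring of the libraries moved the class medians to -0.21 and -0.06 and the medians of all genes to 0.41 and 0.52. The class medians thus stayed below those of all genes. After centring, 2 and 3 of the 7 were above 0 and only mec-3 was called, so the calls of the other 3 depended on the scaling. mec-3, the touch receptor neuron selector, lies on chromosome IV at 10458816 to 10461867. It was at 9.02, 8.75, 8.25 and 8.48 in daf-2, at 7.74, 7.36, 7.65 and 7.18 in the labelled double mutant, and at 7.30, 6.74, 7.29 and 7.22 in the triple mutant. The lowest daf-2 library lay above the highest of the other 8. The log2 fold changes of mec-3 were -1.14 (SE 0.21, limma adjusted p = 0.00111) and -1.49 (limma adjusted p = 0.000118), and both passed every alternative run, a log2 threshold of 1 included.

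lin-11, needed in vulval cells and several interneurons, lies on chromosome I at 10248288 to 10255327. It was at 11.03, 11.43, 11.22 and 10.89 in daf-2, at 9.86, 10.11, 10.41 and 10.41 in the labelled double mutant, and at 10.07, 10.80, 10.80 and 9.77 in the triple mutant. In the last genotype, replicates 2 and 3 came within 0.1 of the lowest daf-2 library without overlapping it. The log2 fold changes were -0.94 (SE 0.23, limma adjusted p = 0.00672) and -0.78 (limma adjusted p = 0.0171), and the second was not called without daf-2 replicate 2 (-0.69, adjusted p = 0.0557) or triple mutant replicate 1 (-0.69, adjusted p = 0.0580). lim-4, which sets AWB olfactory neurons apart from AWC, lies on chromosome X at 3869404 to 3873545, 11606 bases from ceh-18. It was at 10.52, 10.67, 10.36 and 10.40 in daf-2, at 9.33, 9.53, 9.80 and 9.69 in the labelled double mutant, and at 9.32, 10.19, 10.21 and 9.51 in the triple mutant. No mutant library reached the daf-2 values, and replicates 2 and 3 of the triple mutant were again the nearest. Its log2 fold changes were -0.90 (SE 0.20, limma adjusted p = 0.00411) and -0.68 (limma adjusted p = 0.0188). The call of lim-4 in the triple mutant was lost without daf-2 replicate 2 (-0.61), without replicate 1 (-0.51) or replicate 4 (-0.58) of the triple mutant, and in a fit of those 2 genotypes alone (adjusted p = 0.0547). It was also lost after quantile normalization (-0.52) and with the stage score (-0.46).

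lim-6, which acts in GABAergic neurons, changed by -0.63 and -0.60, both called and both near the threshold. It was not called in the first comparison without daf-2 replicate 2 (-0.57), nor in the second without daf-2 replicate 2 (-0.53) or 3 (-0.56) or without triple mutant replicate 1 (-0.51) or 3 (-0.58). Its exons overlap those of pfn-3 on the other strand by 23 bases, and reads of such pairs cannot be assigned to a strand here. ttx-3, the selector of AIY interneurons, changed by -0.64 in the labelled double mutant, with libraries that did not overlap those of daf-2 but an adjusted p of 0.100 (limma), and by -0.32 in the triple mutant. It was called in the first comparison without triple mutant replicate 4 (adjusted p = 0.00978). ceh-14 of the AFD thermosensory neurons (-0.23 and -0.36) and lim-7 of the gonadal sheath (-0.17 and -0.19) did not pass.

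**Figure D2:**
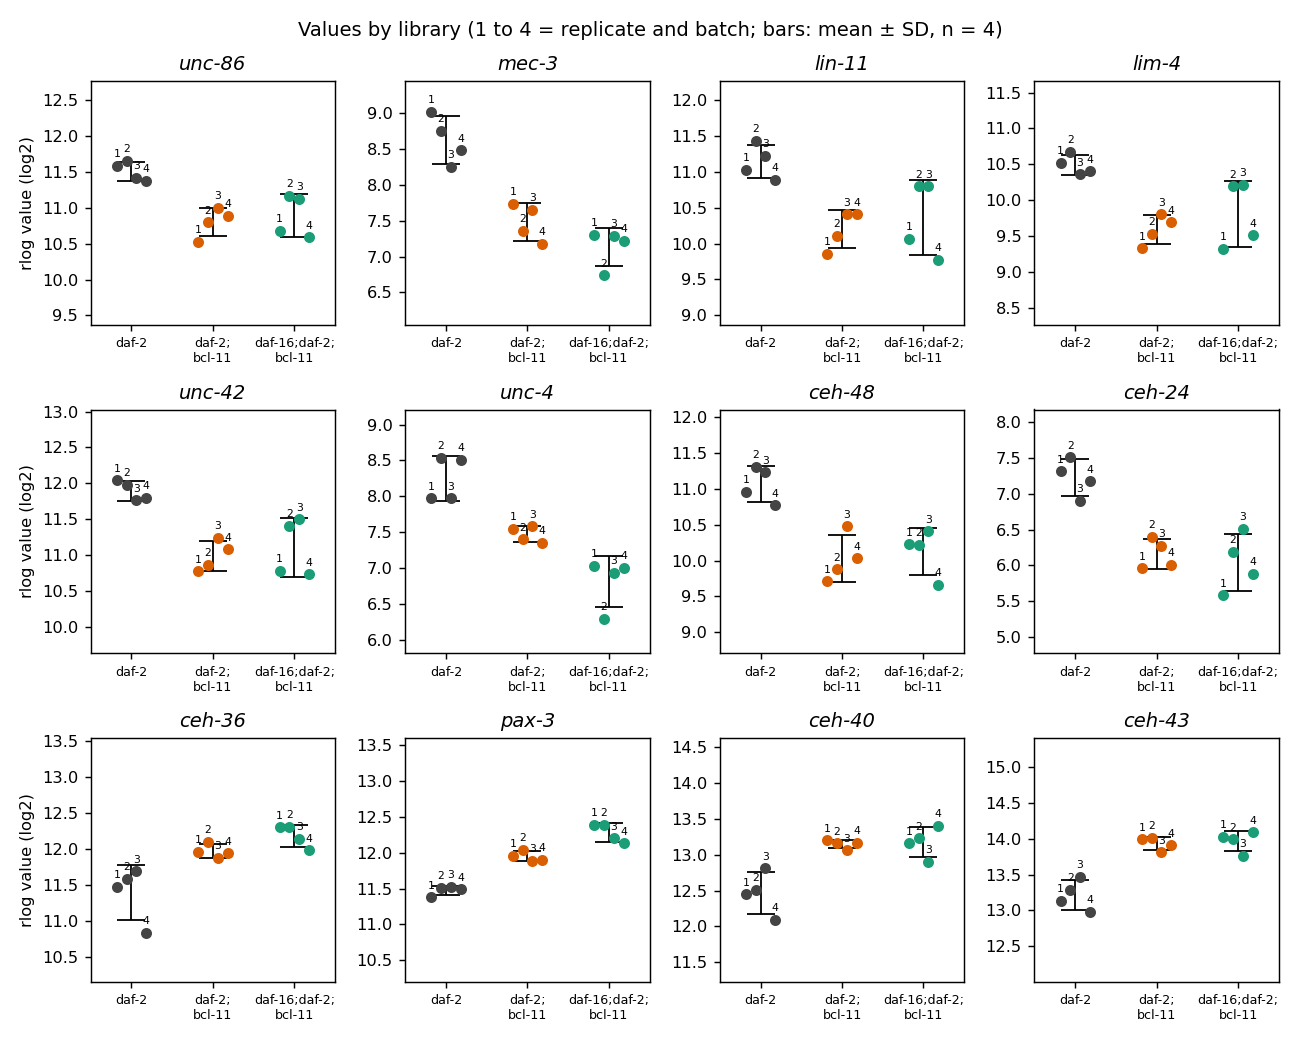
rlog values (log2) of 12 homeobox genes in each of the 12 libraries, numbered 1 to 4 by replicate and batch, with mean ± SD (n = 4) as bars. In the upper 8 panels every daf-2 library is above all mutant libraries, from 8.25 against 7.74 for mec-3 to 10.89 against 10.80 for lin-11. In the lower 4 panels every daf-2 library is below them. The genes shown had been chosen as called without overlap in at least 1 comparison with daf-2, so the separation there follows from the choice.

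The 8 paired-like genes split. unc-42, a selector of command and other interneurons that controls the glutamate receptor gene glr-1, lies on chromosome V at 9764534 to 9769391. It was at 12.04, 11.98, 11.76 and 11.80 in daf-2, at 10.77, 10.86, 11.24 and 11.08 in the labelled double mutant, and at 10.78, 11.41, 11.50 and 10.73 in the triple mutant. All mutant libraries were below all daf-2 libraries. The log2 fold changes were -0.91 (SE 0.18, limma adjusted p = 0.00203) and -0.79 (limma adjusted p = 0.00403), and 29 exonic bases are shared with F46B6.18 on the other strand. With the stage score the changes were -0.49 and -0.58, neither called.

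unc-4, which sets the synaptic input of a class of motor neurons through the corepressor UNC-37, lies on chromosome II at 9897751 to 9900376. It was at 7.97, 8.54, 7.97 and 8.51 in daf-2, at 7.56, 7.40, 7.58 and 7.35 in the labelled double mutant, and at 7.03, 6.29, 6.93 and 7.00 in the triple mutant. The 3 genotypes did not overlap in any pair, with daf-2 highest and the triple mutant lowest. unc-4 fell by 0.78 (SE 0.21, limma adjusted p = 0.0113) and by 1.43 (limma adjusted p = 0.000147), which is 1.71-fold and 2.70-fold.

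ceh-36, an Otx-type gene of the ASE and AWC sensory neurons, moved the other way. It lies on chromosome X at 14183221 to 14186566, 10805 bases from its relative ceh-37. ceh-36 was at 11.47, 11.58, 11.69 and 10.83 in daf-2, at 11.96, 12.10, 11.88 and 11.94 in the labelled double mutant, and at 12.30, 12.31, 12.14 and 11.98 in the triple mutant. Every mutant library was above every daf-2 library, and daf-2 replicate 4 was the lowest by a wide margin. The increase of 0.79 in the triple mutant was called (limma adjusted p = 0.00213). That of 0.58 in the labelled double mutant (SE 0.17, limma adjusted p = 0.0166) fell just under the fold threshold. It passed without daf-2 replicate 1 (0.60), 2 (0.64) or 3 (0.68) or without replicate 3 (0.61) or 4 (0.59) of the labelled double mutant. The lowest value with 1 library left out was 0.39 for the labelled double mutant and 0.60 for the triple mutant. The other 5 did not pass in either comparison: ceh-37 of the AWB neurons (-0.03 and 0.20), ttx-1 of the AFD neurons (-0.45 and 0.11), unc-30 of the GABAergic motor neurons (-0.09 and -0.35), ceh-10 of the AIY and CAN neurons (-0.11 and 0.05) and alr-1 of sensory neurons (0.06 and 0.34).

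Among the 3 Pax genes, pax-3, which acts in the ventral epidermis, was higher in the triple mutant. It lies on chromosome II at 10146570 to 10152865. It was at 11.37, 11.51, 11.52 and 11.49 in daf-2, at 11.96, 12.04, 11.89 and 11.90 in the labelled double mutant, and at 12.39, 12.39, 12.20 and 12.13 in the triple mutant. The 3 genotypes formed 3 separate ranges, in the reverse order of unc-4. Its log2 fold changes were 0.47 (SE 0.11, limma adjusted p = 0.00456, under the fold threshold) and 0.80 (limma adjusted p = 8.3e-05). vab-3, the Pax6 homologue of the head (0.03 and 0.30), and eyg-1 (-0.25 and 0.23) did not pass, nor did the sine oculis-type genes ceh-32 of the head (0.22 and 0.43) and ceh-34 of the pharyngeal neurons (-0.18 and -0.01).

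TALE genes encode the Pbx and Meis partners of other homeodomain proteins and the Iroquois gene irx-1. ceh-40, on chromosome X at 12318126 to 12320777, was at 12.45, 12.51, 12.81 and 12.09 in daf-2, at 13.20, 13.16, 13.06 and 13.17 in the labelled double mutant, and at 13.16, 13.23, 12.90 and 13.40 in the triple mutant. Its daf-2 libraries were all below the others, with replicate 4 the lowest. It rose by 0.68 (SE 0.15, limma adjusted p = 0.00304) and by 0.71 (limma adjusted p = 0.00192), and without daf-2 replicate 4 the increases were 0.56 and 0.58, under the fold threshold. After quantile normalization the increases of ceh-40 were 0.49 and 0.46, neither called. Its exons share 59 bases with xtr-2 on the other strand. The Pbx gene ceh-20 (0.19 and 0.58), the Meis gene unc-62 (0.09 and 0.40) and irx-1 (0.18 and 0.53) had adjusted p-values of 0.00773, 0.0367 and 0.0131 (limma) in the triple mutant and stayed under the fold threshold, while ceh-60, a further Pbx-type gene, changed by -0.01 and 0.22. Left without daf-2 replicate 2 or 3 or triple mutant replicate 4, ceh-20 (0.65, 0.69 and 0.65) and irx-1 (0.60, 0.59 and 0.65) passed in that comparison. Their lowest values there with 1 library left out were 0.45 and 0.41. The class medians were 0.18 and 0.53, and the first turned to -0.01 under quantile normalization.

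Among the 3 Onecut genes, ceh-48 fell in both comparisons and ceh-39 rose in the triple mutant. ceh-48, which takes part in pan-neuronal gene expression, lies on chromosome IV at 6812108 to 6815607. It was at 10.96, 11.31, 11.23 and 10.77 in daf-2, at 9.71, 9.88, 10.48 and 10.03 in the labelled double mutant, and at 10.23, 10.22, 10.41 and 9.66 in the triple mutant. No mutant library reached the lowest daf-2 library. It was 2.06-fold lower (log2 fold change -1.04, SE 0.20, limma adjusted p = 0.00154) and 1.92-fold lower (-0.94, limma adjusted p = 0.00241). With the stage score its changes were -0.54, not called, and -0.69, called.

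ceh-39, an X chromosome signal element in sex determination, lies at 1853874 to 1856172 on that chromosome. It was at 12.52, 12.97, 13.23 and 12.96 in daf-2, at 13.53, 13.52, 13.40 and 13.55 in the labelled double mutant, and at 13.59, 13.84, 13.24 and 13.71 in the triple mutant. The daf-2 libraries were the 4 lowest, with daf-2 replicate 3 and triple mutant replicate 3 almost equal. The changes were 0.58 (SE 0.15, limma adjusted p = 0.0107, just under the fold threshold) and 0.67 (limma adjusted p = 0.00371). The second was 0.54 without daf-2 replicate 1 and 0.40 after quantile normalization, and neither value was called. The first change passed without daf-2 replicate 2 (0.60), 3 (0.68) or 4 (0.59) or without replicate 3 of the labelled double mutant (0.61). Its lowest value with 1 library left out was 0.45. ceh-38 changed by 0.38 and 0.42, with adjusted p-values of 0.00973 and 0.00495 (limma), under the fold threshold in both.

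Of the 11 NK and Antennapedia-like genes, 1 was lower and 1 higher in the labelled double mutant, and 2 were lower and 2 higher in the triple mutant. ceh-43, the Distal-less homologue, acts in the anterior epidermis and in dopaminergic neurons and lies on chromosome III at 4446638 to 4449943. It was at 13.13, 13.29, 13.47 and 12.98 in daf-2, at 13.99, 14.01, 13.81 and 13.91 in the labelled double mutant, and at 14.03, 13.99, 13.76 and 14.09 in the triple mutant. All 8 mutant libraries were above all daf-2 libraries and the mutant groups overlapped each other. The increases were 0.71 (SE 0.12, limma adjusted p = 0.000597) and 0.75 (limma adjusted p = 0.000289), which is 1.64-fold and 1.68-fold. After quantile normalization they were 0.52 and 0.46, neither called.

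ceh-24, an NK-2-type gene of pharyngeal and vulval muscle and of some head neurons, lies on chromosome V at 13813231 to 13815350. It was at 7.31, 7.51, 6.90 and 7.17 in daf-2, at 5.96, 6.40, 6.27 and 6.01 in the labelled double mutant, and at 5.58, 6.19, 6.51 and 5.88 in the triple mutant. The mutant libraries were all below the daf-2 libraries. It was 2.09-fold lower (log2 fold change -1.06, SE 0.22, limma adjusted p = 0.00234) and 2.27-fold lower (-1.18, limma adjusted p = 0.000870).

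ceh-2, on chromosome I at 6046788 to 6050451, was at 9.12, 9.37, 9.08 and 9.31 in daf-2, at 8.42, 8.62, 8.86 and 8.65 in the labelled double mutant, and at 8.17, 8.65, 8.62 and 8.17 in the triple mutant. Its daf-2 libraries were the 4 highest. The change of -0.82 in the triple mutant was called (limma adjusted p = 0.00177), and that of -0.58 in the labelled double mutant (SE 0.17, limma adjusted p = 0.0168) fell just under the fold threshold. It passed without daf-2 replicate 1 (-0.61) or 3 (-0.63) or without replicate 3 (-0.66) or 4 (-0.59) of the labelled double mutant. Its smallest size with 1 library left out was -0.51. ceh-16, the engrailed homologue of the epidermal seam cells, changed by 0.46 and 0.77. The second was called (limma adjusted p = 0.00557) although triple mutant replicate 4, at 10.39, fell below the highest daf-2 library, at 10.42.

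The other 7 genes of this class passed no call in either comparison. They were vab-7 of posterior cells (0.42 and 0.48), ceh-27 (0.38 and 0.52), the Msx homologue vab-15, which acts upstream of touch neuron fate (0.26 and 0.51), mls-2 of the postembryonic mesoderm (0.21 and 0.39), cog-1 of the right ASE neuron (-0.23 and 0.05), ceh-23 (-0.10 and 0.01) and ceh-28 of a pharyngeal neuron (-0.37 and -0.51). In the triple mutant, ceh-27 (0.59) and vab-15 (0.60) passed without daf-2 replicate 3, vab-7 (0.60) without daf-2 replicate 1, and ceh-28 (-0.61) without triple mutant replicate 4. The changes nearest 0 with 1 library left out were 0.46, 0.42, 0.39 and -0.37 for these genes in turn. Outside these classes, zag-1, the ZEB homologue with roles in axon guidance and neuron identity, changed by -0.52 and -0.27 and passed no call. The latter turned to 0.27 under centring of the libraries, which moved the median of all genes there to 0.52.

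Where the 4 libraries of each genotype did not overlap, the two-sided exact permutation p is 0.0286 by construction, the smallest that the 70 arrangements of 4 libraries against 4 allow, and it adds nothing to the lack of overlap.

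No homeobox gene was called between the triple mutant and the labelled double mutant, where 3 of 25122 genes were called (0.00796% higher and 0.00398% lower). Without triple mutant replicate 4, which stood apart by its maternal transcripts, 38 genes were called higher and 319 lower, or 0.151% and 1.27%, and without replicate 4 of daf-2 as well, 63 and 502. By limma 7 of the 43 members had an unadjusted p below 0.05, or 16.3%, beside 6.03% of all genes, and 7 did not overlap, beside 4.32% of all genes. The log2 fold change was above 0 for 34 of the 43, with a median of 0.16 beside 0.00 over all genes. With a stage score (maternal and early zygotic minus late embryonic transcripts) as a covariate, it was above 0 for 25 and the median was 0.04. The 3 members with the lowest p were unc-4 (-0.66), pax-3 (0.33) and eyg-1 (0.48), each with a limma adjusted p of 0.787. eyg-1, a Pax-type gene, was at 10.18, 10.65, 10.60 and 10.36 in the labelled double mutant and at 10.93, 11.26, 11.14 and 10.36 in the triple mutant. Its replicates 1 to 3 of the triple mutant were above all libraries of the labelled double mutant and replicate 4 was not. The two-sided exact permutation p was 0.0857. Without replicate 4 eyg-1 was called higher (log2 fold change 0.66, limma adjusted p = 0.0374), as 1 of the 38 genes called higher in that fit. The RNA of daf-16, the gene meant to separate these 2 groups, was low in both (log2 fold change 0.20, limma adjusted p = 0.793).

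Genes on which these factors are known to act were read beside them, from a list of 23 neuron identity genes. Of the 23, 13 were lower in the labelled double mutant and 14 in the triple mutant, and none was higher, with median log2 fold changes of -0.72 and -0.93. Over all genes 15% and 16.2% were called lower, or 21.7% and 23.5% of those with a mean of at least log2(10). This list and the lists below were not counted under the other scalings or with the stage score. glr-1, a glutamate receptor gene under unc-42 (-1.51 and -2.35), and gcy-8, a guanylyl cyclase gene of the AFD neurons (-1.52 and -1.99), were lower in both. The mean of the list was between 7.96 and 8.29 in daf-2, between 7.29 and 7.44 in the labelled double mutant and between 6.96 and 7.40 in the triple mutant, with no overlap with daf-2. Of 13 genes that all neurons use, 6 and 8 were lower and 1 was higher in each comparison, with medians of -0.59 and -0.65, and the neuropeptide processing gene egl-21 was lower in both (-1.12 and -1.56). Their list mean ranged from 10.32 to 10.74 in daf-2, from 9.91 to 10.06 in the labelled double mutant and from 9.69 to 10.19 in the triple mutant, and its part in the lower level of the 10 homeobox genes called in both comparisons was not tested. Of 3 cofactor genes, none was called in the labelled double mutant. The corepressor genes unc-37 (0.55 and 0.67) and lsy-22 (0.42 and 0.69) were called higher in the triple mutant, and the LIM-domain binding gene ldb-1 did not pass in either comparison.

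Markers of embryonic stage differed between the genotypes as well. Of 12 maternal transcripts, 11 were higher in the labelled double mutant and 1 in the triple mutant, with medians of 1.53 and 0.78. Their list mean was at 10.59, 10.32, 10.57 and 11.86 in daf-2, at 12.71, 12.22, 12.12 and 12.09 in the labelled double mutant, and at 11.36, 10.98, 11.01 and 12.80 in the triple mutant. Replicate 4 of daf-2 and of the triple mutant stood apart from the other 3 of their genotype. Of 12 early zygotic genes 8 and 3 were higher, and of 12 late embryonic genes 5 were lower in each comparison. The late genes called lower included myo-3, unc-15 and unc-54, which are on the muscle list too, so the stage score rests in part on muscle genes. With the stage score from the maternal, early zygotic and late embryonic lists as a covariate, 2 members were lower and 4 higher in the first comparison. In the second, 6 were lower and 9 higher. The score ran from -6.77 to -5.05 in daf-2 and from -4.48 to -3.79 in the labelled double mutant, with no overlap. That fit thus cannot separate stage from genotype in the first comparison. There ceh-18 (-0.95 without the score, -0.94 with it) and lin-11 (-0.94 and -0.27) both lost their call. Without replicate 4 of daf-2 and of the triple mutant, a choice made after seeing the data, 11 members were lower and 2 higher in the first comparison. In the second, 9 were lower and 5 higher. Adult markers were low throughout, with list means between 4.64 and 5.87 for yolk genes, 2.48 and 2.77 for sperm genes and 2.84 and 4.53 for adult cuticle genes, and none of these genes was called.

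**Figure D3:**
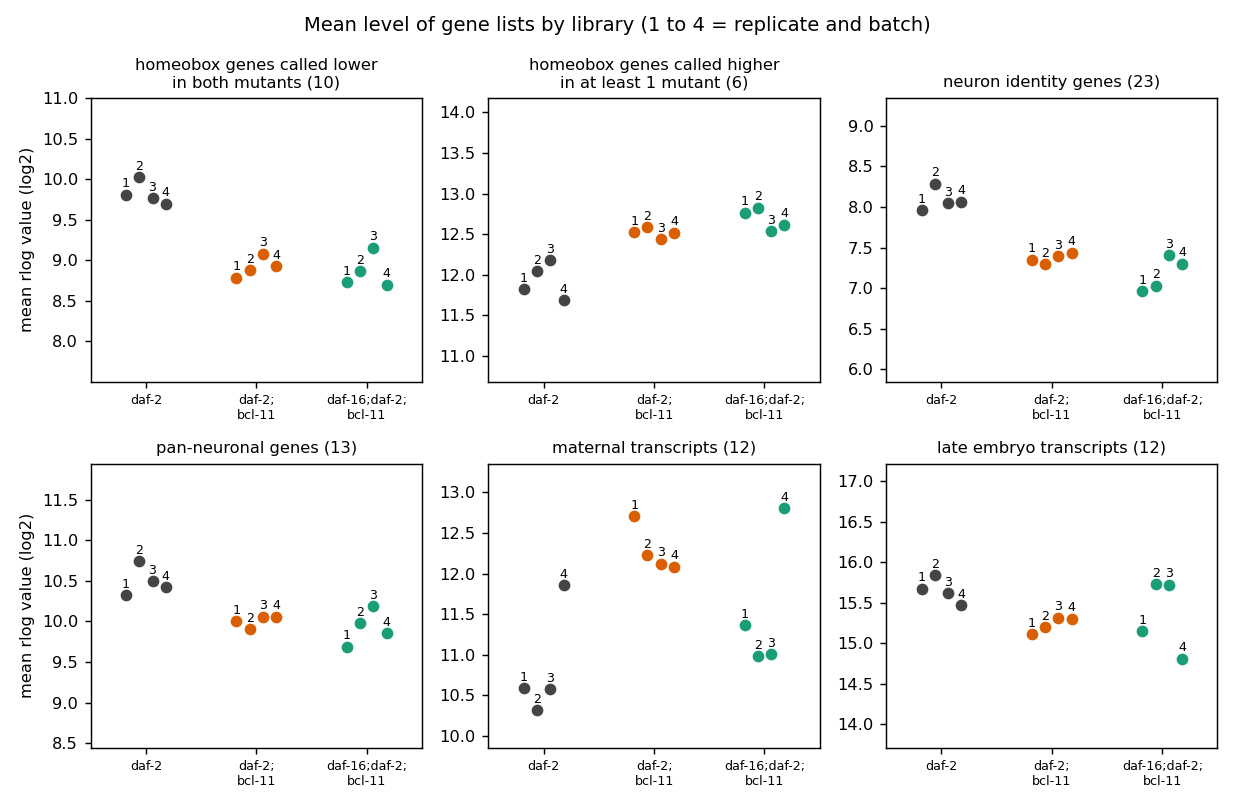
Mean rlog value (log2) of 6 gene lists in each library, numbered 1 to 4 by replicate and batch, with the number of genes in each list in brackets. The 10 homeobox genes called lower in both mutant groups, the 23 neuron identity genes and the 13 pan-neuronal genes separate daf-2 from the other genotypes in every library. For the homeobox genes this follows from how they were chosen. The maternal list puts replicate 4 of daf-2 (11.86) and of the triple mutant (12.80) apart.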

How the data were processed

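Eggs of 3 genotypes were compared, with 4 libraries each. The labels give 5 ng of RNA and Smart-seq2 libraries, which do not keep strand. Per the labels and the study's methods, the authors used bcl2fastq 2.20 and Kallisto 048.0 with WBcel235 (Ensembl 109). The authors deposited 1 table of rlog values on a log2 scale. The filter, the summing of transcripts to genes and the rlog tool are not given in the sources used here. Symbols and coordinates came from Ensembl 115 (WBcel235).

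A linear model with moderated variances and a trend (limma 3.58.1 under R 4.3.3) was fitted to all 12 libraries and 25122 genes, with Benjamini-Hochberg adjustment and thresholds of 0.05 and 0.585. Permutation tests were run in scipy 1.17.1. On simulated data of 25122 genes for the labelled double mutant against daf-2, the fit called 57 of 100 genes changed by 1 (log2), 97 of 100 changed by 2, and 3 unchanged genes. The simulation changed 200 genes and drew each gene independently, whereas the real comparison called 1758 genes higher and 3759 lower. Its counts thus do not give the recovery or the false calls in the real data. The members and lists were chosen with earlier results of these data known. Members named with values in every library were those called and not overlapping, up to 3 per class by size of change, and the 3 lowest p-values between the mutants. In the other lists up to 3 called genes were named. The batch numbers in the labels pair the libraries. Deviations of same-numbered libraries from their group means correlated at -0.10 to 0.18 (labelled double mutant with daf-2), 0.04 to 0.38 (the triple mutant with daf-2) and -0.30 to 0.12 (between the mutants). No pair of libraries held identical values. Nothing says whether libraries came from separate cultures, so p-values measure the spread between these libraries. A search of promoters for binding motifs was not run, since no sequence was used here.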

Additional observations from a re-analysis of the deposited data

Results flagged for a closer look

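Of 129 groups of 4 libraries (43 homeobox genes in 3 genotypes), 6 held a library far from the other 3, where chance gives about 6.45. For mec-3, triple mutant replicate 2 was at 6.74 beside a mean of 7.27, a gap of 0.847 of the group's range. The same library was at 6.29 beside 6.99 for unc-4 (0.867 of the range). triple mutant replicate 1 was at 4.59 beside 5.59 for ceh-14 (0.853 of the range). Replicate 1 of the labelled double mutant was at 13.22 beside 13.43 for ceh-34 (0.836 of the range). Its replicate 2 was at 8.37 beside 8.01 for ceh-60 (0.859 of the range), and its replicate 4 at 2.34 beside 2.10 for ceh-23 (0.883 of the range).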

How the results depend on the processing

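Counts of homeobox genes are given in the order higher and lower in the labelled double mutant, then higher and lower in the triple mutant, each against daf-2, with 2, 10, 6 and 11 in the reported fit. They were 14, 3, 24 and 3 after centring, 1, 6, 6 and 7 after quantile normalization, 4, 2, 9 and 6 with the stage score, 7, 11, 15 and 11 with no fold threshold, and 0, 3, 0 and 4 at a log2 threshold of 1. Over all genes the shares called, in the same order, were 8.80%, 10.4%, 9.06% and 10.5% after quantile normalization. They were 5.58%, 11.2%, 7.33% and 15.99% with the stage score. With no fold threshold they were 12.2%, 17.2%, 13.3% and 18.5%. At a log2 threshold of 1 they were 2.05%, 7.95%, 0.358% and 10.1%. With the replicate block the counts of homeobox genes were 2, 10, 6 and 11. The block changed no other call, the comparison between the mutants included (0 and 0). Leaving out 1 library gave 2 to 4, 9 to 11, 5 to 10 and 7 to 11. The 7 came without daf-2 replicate 2 and without triple mutant replicate 1, and the 10 without daf-2 replicate 3. Between the mutants, leaving out 1 library gave 0 to 1 higher (eyg-1, without triple mutant replicate 4) and 0 lower. Without replicate 4 of daf-2 and of the triple mutant, chosen after seeing the data, 1 was higher between the mutants. The cause of these differences was not tested beyond the thresholds themselves. eBayes without a trend and the filter at log2(10) gave 2, 10, 6 and 11. A fit of the 2 genotypes compared gave 2, 11, 6 and 10. No called change reversed. Only mec-3 in both comparisons, and unc-4 and ceh-24 in the triple mutant, kept their call under all 22 alternatives. Depth is unknown, and what it limits could not be measured.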

Other observations

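Per kilobase of exon, the daf-2 level (mean rlog value minus log2 of the exon length) was highest for ceh-20 (13.48), ceh-27 (13.43), ceh-34 (13.41) and ceh-43 (13.14) and lowest for ceh-23 (2.19). The median was 9.44 for the 11 members called lower, from ceh-18 at 7.09 to unc-42 at 11.68. It was 11.61 for the 6 called higher, from ceh-16 at 10.26 to ceh-43 at 13.14, and 10.69 for the 26 not called. On chromosome X lay 15 of the 43, with 3 of the 11 lower and 3 of the 6 higher genes.

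The spread between libraries was smallest in the labelled double mutant for 31 of 43 members, with median SDs of 0.22 in daf-2, 0.11 in the labelled double mutant and 0.27 in the triple mutant, beside 0.203, 0.122 and 0.214 over all genes. Replicates 2 and 3 of the triple mutant were both above replicates 1 and 4 for 18 members, which included 6 of the 11 lower and 0 of the 6 higher genes.

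Of 53 further homeobox genes 51 were measured, and 5 were higher and 6 lower in the labelled double mutant, and 7 and 6 in the triple mutant. These were 9.80% and 11.8%, and then 13.7% and 11.8%, of those measured. Over all genes 7.00% were higher and 15% lower in the first comparison, and 6.38% and 16.2% in the second. The same shares of all genes apply to the tissue lists that follow. ceh-19 of pharyngeal neurons was lower in both (-1.22 and -1.41). ceh-49 (1.79) and ceh-51 of the early mesoderm (1.19) were called higher in the labelled double mutant. Their changes in the triple mutant were 0.59 and 0.48, not called, and neither gene was called between the mutant groups (limma adjusted p = 0.787 for both). Of 5 muscle genes 4 were lower in each comparison, and of 3 pharynx genes 2 in each. The muscle genes called lower included myo-3, unc-15 and unc-54, which were also counted as late embryonic genes. Of 5 epidermal genes 0 and 2 were higher, and of 3 intestinal genes 0 and 1 were higher.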
